A study of Mus musculus with 4 samples.

Results

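The 8 genes described here, Ccr7, S1pr1, S1pr5, Klf2, Lef1, Il7r, Dapl1 and Cd69, govern or mark the homing, exit and quiescence of naive T cells. They were chosen by symbol from the 31053 genes of the deposited tables, and each symbol occurred once. Their RNA was counted in single cells from 4 libraries of mouse liver tissue (10x Genomics, 5' gene expression). Each library stood alone in its group: Mef2d KO early hepatocellular carcinoma (eHCC), Mef2d WT eHCC, Mef2d KO premalignant liver and Mef2d WT premalignant liver. The protein MEF2D is a MADS-box activator and repressor of transcription. All tissue was minced and enzymatically dissociated. The sources used here do not give the cell type in which Mef2d was deleted, the strain and age of the mice, how tumours were induced or the number of animals per library. No test between groups could be made from single libraries, so ratios are given with intervals in brackets (for levels, in parentheses) that cover counting error only (95%) and say nothing of the spread between animals.

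Naive T cells enter lymph nodes when the chemokine receptor CCR7 senses CCL19 and CCL21, and leave along a gradient of sphingosine 1-phosphate (S1P) sensed by S1PR1. The transcription factor KLF2 keeps S1pr1 transcribed, and CD69, induced on activation, binds S1PR1 and removes it from the cell surface. LEF1, with TCF1, holds the naive programme, while IL-7 received through IL7R sustains the resting cells. After activation, T cells lower these genes, and cells that stay in tissue keep Klf2 and S1pr1 low and CD69 on the surface. B cells use the same CCR7 and S1PR1 system, and NK cells leave tissue through S1PR5.

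MEF2 factors are known, from endothelial cells, to act on the Klf2 promoter downstream of the kinase ERK5. Of the 8 genes, 5 (S1pr5, Klf2, Lef1, Il7r and Dapl1) had an upstream window in the RefSeq table of build GRCm38.p6, here the 200 bases that run from 250 to 51 bases before the annotated start. A form of the MEF2 consensus, CTA followed by 4 bases of any kind and TAG, which reads the same on both strands, was searched in these windows. It occurred in the Klf2 window and in none of the windows of the other 4 genes. The Klf2 window, chr8:72318812-72319011 on the plus strand, is shown because Klf2 RNA differed between the KO and WT tumour libraries in every T-like gate compared below, with the match in capitals.
Klf2: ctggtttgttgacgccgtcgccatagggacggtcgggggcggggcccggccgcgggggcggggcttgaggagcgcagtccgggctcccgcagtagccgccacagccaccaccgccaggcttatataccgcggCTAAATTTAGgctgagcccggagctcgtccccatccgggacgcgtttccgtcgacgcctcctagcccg
The match starts 118 bases before the RefSeq start. Among 32851 windows of all genes, 849 (2.58%) hold this motif. It describes letters in a window and does not show that MEF2D binds there.

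The 4 libraries held 10686, 11022, 9672 and 14167 barcodes in the order KO eHCC, WT eHCC, KO premalignant and WT premalignant, of which 8382, 10095, 8821 and 12844 were kept, with medians of 7268, 8629, 4312 and 4760 UMIs. Pairs of libraries shared 27 to 46 barcodes, at most 0.476% of a library. Mef2d RNA was higher in the libraries labelled KO, with 105 against 68.7 CPM at eHCC and 103 against 70.1 CPM in premalignant liver in T-like cells; which exons were removed is not given, so this level does not test the label. Cells were clustered without the 8 genes, and clusters were named from marker genes. T-like cells numbered 5050, 4093, 2160 and 1929, B-like cells 510, 411, 1595 and 2762, and NK-like cells 427, 350, 395 and 238, in the same order. The 10 T cell markers all had UMIs in T-like cells of every library and summed to 5292 to 7001 CPM (UMIs of a gene over all UMIs of the class, scaled to a common total), against 395 to 543 in B-like cells. In NK-like cells they summed to 1528, 1422, 2240 and 2061 CPM in the same order of libraries. RNA of other cell types differed between the libraries: 7 erythroid markers summed to 2563, 325, 42.4 and 170 CPM in T-like cells, with Slc4a1 at 0 UMIs in WT eHCC and KO premalignant. The 12 phagocyte markers, all with UMIs, summed to 1027, 2334, 531 and 698 CPM, and the 10 hepatocyte markers to 12.8, 166, 232 and 349 CPM, with Cps1 at 0 in KO eHCC. Their part in the results below was not tested.

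The T-like cells of the 4 libraries came from different clusters. In the KO eHCC library 54.3% of them lay in a cluster led by Pdcd1, Gzmk and Lag3 (cluster 3), against 2.08% in WT eHCC, and 17.3% in one led by Gzmm and Ly6c2 (cluster 15), against 0.538%. The WT eHCC T-like cells lay mostly in a Tcrg-C2 and Cd8a cluster (cluster 4, 36.0%) and a Nsg2 and Bcl2 cluster (cluster 9, 24.4%), which held 0.891% and 0.257% of those of KO eHCC. A cluster led by Tcf7, Nsg2 and Actn1 (cluster 14), genes of resting T cells, made up 20.1% and 26.7% of the KO and WT premalignant T-like cells, against 0.0594% and 1.08% of the KO and WT eHCC ones. A cluster with one library in the majority may be that library rather than a cell type. Because of these differences, T-like cells were also compared within gates set by their UMIs: Cd8+ Pdcd1+ and Cd8+ Pdcd1- cells (a UMI of Cd8a or Cd8b1, none of Cd4), Cd4+ Foxp3- cells, Foxp3+ cells and all others. The Cd8+ Pdcd1+ gate held 1330 and 701 cells in KO and WT eHCC and 183 and 151 in KO and WT premalignant liver. Deeper cells pass a gate more often, and a UMI count of 0 is not absence of the RNA. The Foxp3+ gate held only 17 and 35 premalignant cells.

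**Figure D1:**
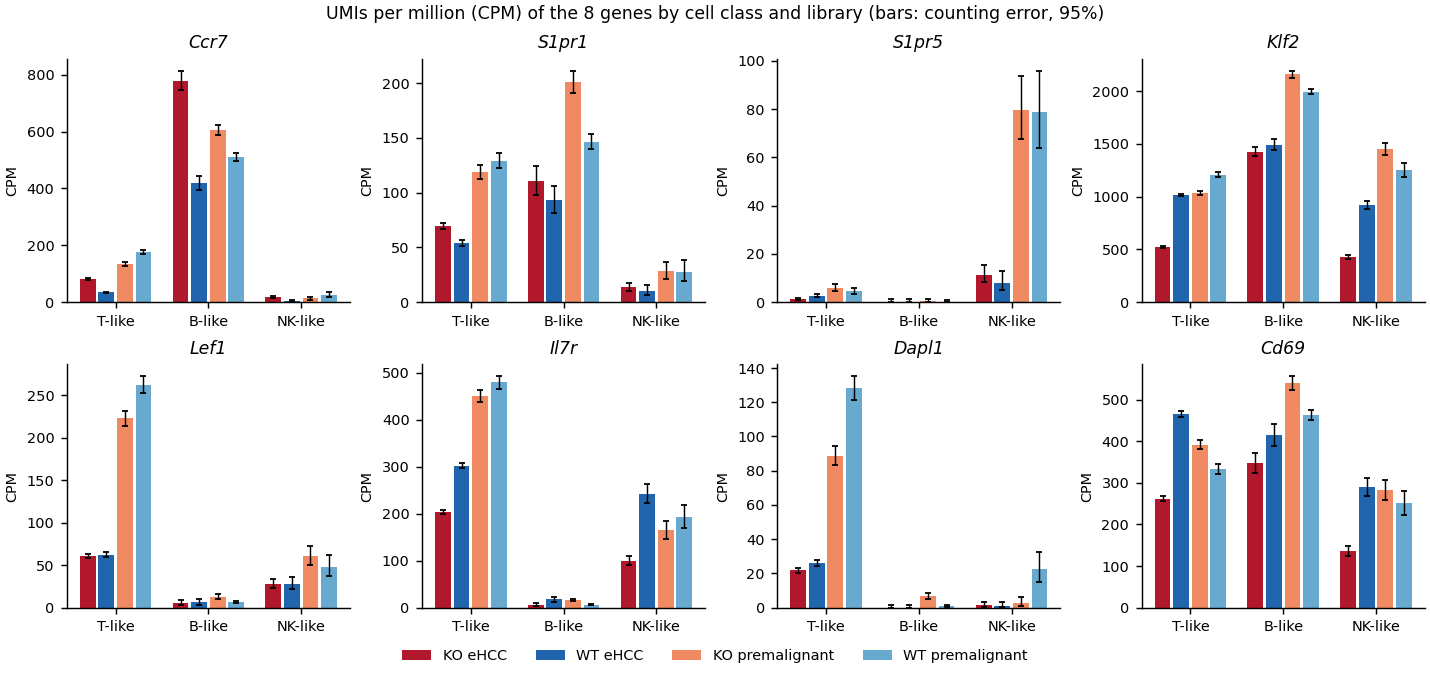
Level of each gene in CPM (linear axes from 0) in T-like, B-like and NK-like cells of the 4 libraries, with error bars for counting error (95%). Ccr7 is highest in B-like cells, S1pr5 in premalignant NK-like cells, and Lef1, Il7r and Dapl1 in premalignant T-like cells.

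Between the KO and WT tumours the 8 genes did not move as a block in T-like cells. Ccr7 was higher in KO eHCC, Klf2, Cd69 and S1pr5 were lower, and S1pr1, Lef1, Il7r and Dapl1 stayed within 1.5-fold. That is 1 gene higher and 3 lower past 1.5-fold with an interval that excludes 0, against 7.81% and 16.9% of the genes measured in T-like cells. The S1pr5 call rests on 54 KO and 81 WT UMIs and held in 10 of 13 alternatives of processing (-1.22 to -0.03). The median log2 ratio of the 8 was -0.43, against -0.09 over all genes. In NK-like cells 1 gene (Ccr7) was higher and 3 (Klf2, Il7r and Cd69) lower, with 7.18% and 14.1% of all genes. B-like cells had 1 higher (Ccr7) and 1 lower (Il7r), with 7.98% and 11.9% of all genes. The Il7r ratio, from 14 KO and 44 WT UMIs, turned round to 1.04 at resolution 2 and 0.95 with doublets by top share in both eHCC libraries, and 0 genes were then past 1.5-fold. In premalignant liver 0 of 8 were higher and 0 lower past 1.5-fold in T-like cells, with 10.7% and 3.28% of all genes. Premalignant B-like cells had 3 higher (Lef1, Il7r and Dapl1) and 0 lower, with 10.3% and 5.3% of all genes, and premalignant NK-like cells 0 higher and 2 lower (Ccr7 and Dapl1), with 8.88% and 4.52%. These premalignant calls rest on 5 to 121 UMIs a library, and 1 cell held 46.00% of the Dapl1 UMIs of KO B-like cells. In B-like cells 0 calls were left with each library clustered on its own, and 1 at resolution 2 or after thinning; after thinning Dapl1 was at -0.21. In NK-like cells 0 were left after thinning.

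Between eHCC and premalignant liver most of the 8 genes were lower in the tumour T-like cells of both genotypes. Of the 8, 0 were higher and 7 lower in the KO libraries, with 7.16% and 36.7% of all genes, and 0 higher and 6 lower in the WT libraries, with 6.73% and 14.2%. The medians of the 8 were -1.07 and -1.01, against -0.37 and -0.16 over all genes. Changes of this size are read against those shifts: with the libraries scaled so that the median gene stays level, 5 of 8 remained past 1.5-fold in KO T-like cells (Ccr7 at -0.33 and S1pr1 at -0.40 did not), and in the WT libraries 5 were lower and Cd69, at 0.64, was higher. NK-like cells had 0 higher and 6 lower in the KO libraries, with 4.74% and 36.6% of all genes, and 0 higher and 5 lower in the WT libraries, with 4.37% and 18.3%. With the median gene kept level, Ccr7 was higher past 1.5-fold in KO NK-like cells (0.81 [0.13 to 1.53]). Il7r (-0.31) in the KO and Lef1 (-0.53) in the WT NK-like cells were then no longer past 1.5-fold. B-like cells had 0 higher and 6 lower in the KO libraries, with 2.95% and 37.5% of all genes, and 1 higher (Il7r) and 1 lower (S1pr1) in the WT libraries, with 4.25% and 20%. With the median gene kept level, the KO B-like cells had 1 higher (Ccr7, 0.81) and 3 lower (Lef1, Il7r and Dapl1), while S1pr1 (-0.41), Klf2 (-0.15) and Cd69 (-0.19) were no longer past 1.5-fold. The WT call of Il7r turned round, to -0.79 at resolution 2 and -0.81 with doublets by top share in both eHCC libraries. The comparisons share libraries: the KO eHCC library enters both its genotype and its stage comparison, so these ratios are not independent of each other.

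**Figure D2:**
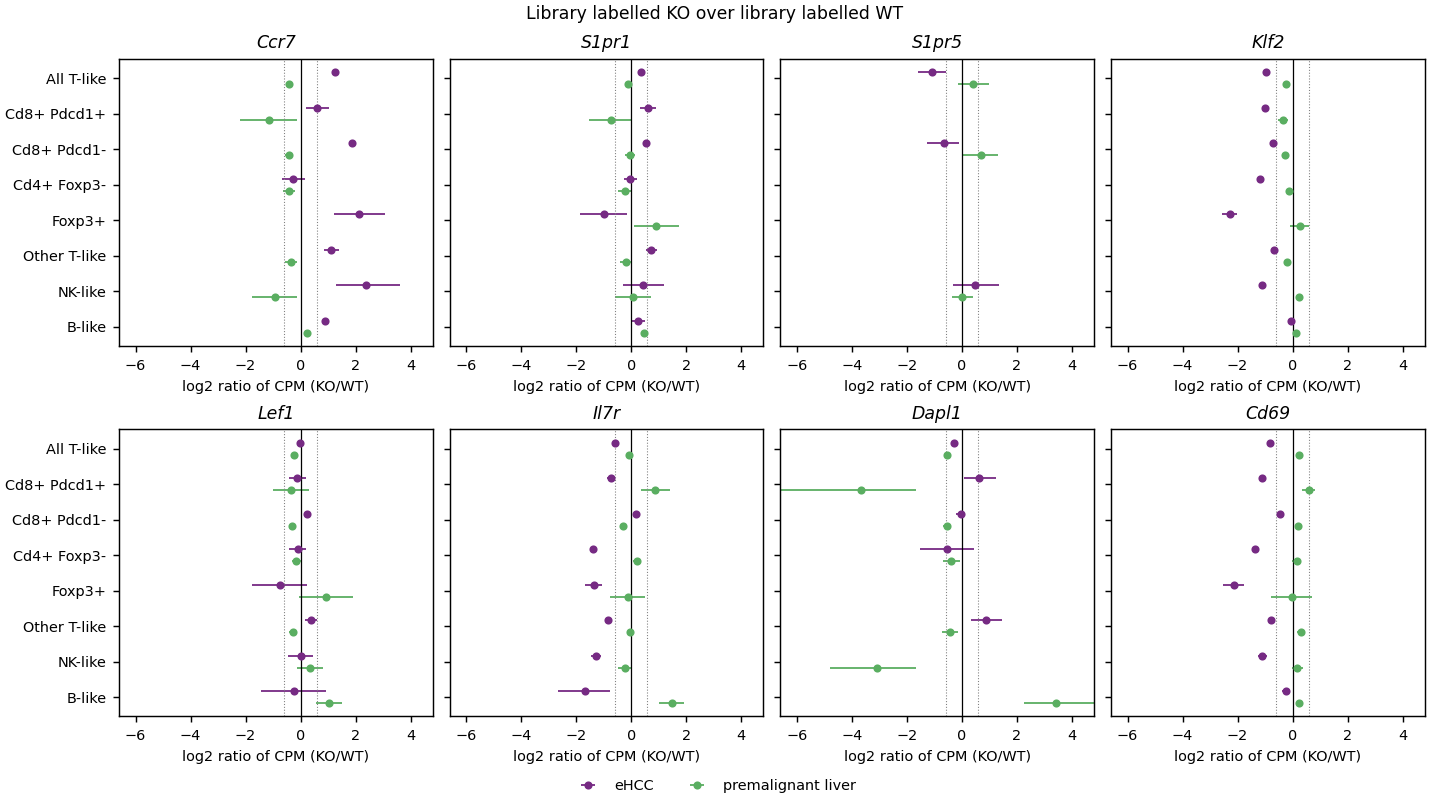
Log2 ratio of CPM, library labelled KO over library labelled WT, for each gene (panels) in all T-like cells, the 5 T-like gates, NK-like and B-like cells, at eHCC (purple) and in premalignant liver (green), where both libraries together hold at least 20 UMIs. Bars are counting intervals (95%) and dotted lines mark 1.5-fold. The eHCC points of Klf2 lie left of 0 in T-like and NK-like cells, and those of Ccr7 right of 0 in all but the Cd4+ Foxp3- gate.

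Ccr7 (ENSMUSG00000037944, chr11:99144196-99155077, minus strand, GRCm38) encodes the lymph node homing receptor. T-like cells had 81.96 CPM (79.3 to 84.7) in KO eHCC and 34.1 CPM (32.1 to 36.3) in WT eHCC. Premalignant T-like cells had 133 CPM (126 to 140.1) in KO and 177 CPM (169 to 185) in WT liver. Both tumour libraries were thus below both premalignant ones, and the WT tumour was lowest. The log2 ratio of KO over WT was 1.26 [1.16 to 1.37] at eHCC and -0.41 [-0.51 to -0.31] in premalignant liver; that of eHCC over premalignant was -0.70 [-0.79 to -0.61] in KO and -2.37 [-2.48 to -2.26] in WT.

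The Ccr7 UMIs came from few clusters. Cluster 15 gave 66.4% of those of KO eHCC T-like cells, cluster 9 gave 58.3% in WT eHCC, and cluster 14 gave 65.3% and 69.6% in KO and WT premalignant liver. The level was 257 CPM in cluster 15 of KO eHCC, 62.8 CPM in cluster 9 of WT eHCC, and 424 and 466 CPM in cluster 14 of KO and WT premalignant liver. The other large clusters lay far lower, at 17.6 CPM in cluster 3 of KO eHCC and 6.67 CPM in cluster 4 of WT eHCC. In WT eHCC, cluster 14 held only 44 cells, 1.08% of the T-like cells, but gave 13.3% of the Ccr7 UMIs. Its level there was thus well above that of cluster 9. Within gates, the difference at eHCC was largest in Cd8+ Pdcd1- cells among gates of over 200 cells, with 171 against 47.1 CPM in KO and WT (log2 ratio 1.86 [1.74 to 1.98]). Cd4+ Foxp3- cells had 22.6 and 27.1 CPM at eHCC, with a ratio whose interval includes 0 (-0.27 [-0.68 to 0.15]), but 156 and 209.6 CPM in premalignant liver.

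B-like cells held the highest Ccr7 levels of the classes compared here. They had 779 CPM (746 to 815) in KO eHCC and 418 CPM (393 to 444) in WT eHCC, a log2 ratio of 0.90 [0.79 to 1.01], and 606 and 511 CPM in KO and WT premalignant liver. The cells behind these values differed: 97.1% of the KO eHCC B-like cells lay in a cluster led by Jchain and Mzb1 (cluster 17), while 86.1%, 95.5% and 94.1% of those of WT eHCC, KO premalignant and WT premalignant liver lay in a cluster led by Ighd and Fcer2a (cluster 0). The 8 plasma cell markers summed to 325 CPM in KO eHCC B-like cells, with Tnfrsf17 at 0, against 5441 CPM in WT eHCC. After each cell was thinned to 1000 UMIs, Ccr7 was detected in 4.73%, 2.39%, 9.28% and 10.97% of T-like cells (KO eHCC, WT eHCC, KO and WT premalignant). In liver sinusoidal endothelial (LSEC)-like cells, which should lack it, the share was 0.965% and 0.358% in the premalignant libraries; the medians before thinning were 4551 and 4754 UMIs in the T-like and 5707 and 7102.5 in the LSEC-like cells. The NK-like shares of 0.468%, 0.287%, 1.53% and 2.10% (same order of libraries) were low, and their ratio of 2.36 [1.30 to 3.63] between KO and WT at eHCC rests on 68 and 8 UMIs, of which single cells gave 17.6% and 37.5%. A dendritic-type cluster led by Cd209a, Ccl17, Ccl22 and Xcr1 also carried Ccr7, at 726, 319, 348 and 299.8 CPM. The higher Ccr7 level in KO eHCC was not limited to lymphocytes. Of 5 other classes with at least 50 cells in both tumours, 4 were higher past 1.5-fold in KO over WT and 0 lower. Of 7 clusters of T-like, B-like and NK-like cells, 6 were higher and 0 lower. The 6 include the B-like cluster 17, with 495 KO and 57 WT eHCC cells, which may differ in kind. They also include the NK-like cluster, whose ratio rests on the 68 and 8 UMIs given above. The NK-like ratio was -1.66 with classes from marker UMIs.

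S1pr1 (ENSMUSG00000045092, chr3:115710433-115715072, minus strand) encodes the receptor that draws lymphocytes out of tissue. Its level in T-like cells was 69.5 CPM (67.03 to 72.04) in KO eHCC and 53.7 CPM (51.1 to 56.3) in WT eHCC. Premalignant T-like cells had 119 CPM (112 to 125) in KO and 129 CPM (123 to 137) in WT. The tumour libraries were below the premalignant ones in both genotypes, with log2 ratios of -0.77 [-0.87 to -0.68] in KO and -1.27 [-1.37 to -1.16] in WT, while KO over WT gave 0.37 at eHCC and -0.13 in premalignant liver. Within gates, KO over WT at eHCC was past 1.5-fold higher in 2 of 5, Cd8+ Pdcd1+ cells (0.60 [0.31 to 0.89]) and other T-like cells (0.73 [0.53 to 0.93]), and lower in Foxp3+ cells (-0.98 [-1.86 to -0.16]). It was also higher in 3 of 7 clusters, those numbered 7, 17 and 23. The B-like cluster 17 held 495 KO and 57 WT eHCC cells, which may differ in kind. In WT, S1pr1 was lower past 1.5-fold in 5 of 5 gates; in KO it was lower in 3 and higher in Cd8+ Pdcd1+ cells (37.4 against 23.02 CPM). Cluster 7, led by Tnfsf8 and Foxp3, kept S1pr1 at 199 CPM in KO eHCC, 87.8 in WT eHCC, 184 in KO and 181 in WT premalignant liver. KO eHCC cells of that cluster were thus near the premalignant level, and those of WT eHCC were the low ones.

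In B-like cells S1pr1 stood at 111 and 93.2 CPM in KO and WT eHCC and at 201 and 147 CPM in KO and WT premalignant liver. It was lower at eHCC in both genotypes (-0.86 [-1.05 to -0.68] in KO and -0.65 [-0.86 to -0.45] in WT), and past 1.5-fold in neither once the median gene was kept level. NK-like cells held little, 13.7, 10.3, 28.3 and 27.3 CPM. Endothelium, the site of the best known S1PR1 function outside lymphocytes, held more: 394 and 369.8 CPM in vascular endothelial-like cells of KO and WT eHCC, and 154 and 144 CPM in LSEC-like cells of KO and WT premalignant liver. Thinned to 1000 UMIs, 10.2% and 10.6% of KO and WT premalignant T-like cells had an S1pr1 UMI, against 2.06% and 1.20% of hepatocyte-like barcodes, whose medians were 1222 and 1291 UMIs before thinning. At eHCC the T-like shares were 6.72% in KO and 4.77% in WT.

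S1pr5 (ENSMUSG00000045087, chr9:21242912-21248443, minus strand) encodes the S1P receptor used by NK cells. NK-like cells had 11.4 CPM (8.28 to 15.3) in KO eHCC and 8.14 CPM (4.90 to 12.7) in WT eHCC. Premalignant NK-like cells had 79.7 CPM (67.4 to 93.5) in KO and 78.7 CPM (63.9 to 95.9) in WT. Both tumour libraries lay several-fold below both premalignant ones, and the genotypes lay close together within a stage. The log2 ratio of eHCC over premalignant was -2.81 [-3.33 to -2.31] in KO and -3.27 [-4.07 to -2.55] in WT, among the largest of the 8 genes in any class. Over the alternatives of processing it ranged over -3.24 to -2.39 in KO and -3.35 to -2.82 in WT. KO over WT gave 0.49 [-0.32 to 1.34] at eHCC and 0.02 [-0.36 to 0.40] in premalignant liver. The share of NK-like cells with an S1pr5 UMI after thinning was 1.17%, 1.15%, 8.40% and 10.1%, and 0 of 2486 KO and 0 of 5028 WT premalignant LSEC-like cells had one. All NK-like cells came from 1 cluster (cluster 10) in every library, in which the 12 NK markers, all with UMIs, summed to 11569, 6969, 12772 and 13656 CPM. The 7 erythroid markers summed to 2797, 174, 53.5 and 176 CPM in the same cells, and their part in the NK-like results was not tested. T-like cells held 54, 81, 66 and 47 S1pr5 UMIs, or 1.26, 2.65, 6.01 and 4.49 CPM, and B-like cells 0, 0, 4 and 3 UMIs. Phagocyte-like cells also held S1pr5, at 5.25, 0.812, 21.6 and 34.7 CPM.

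**Figure D3:**
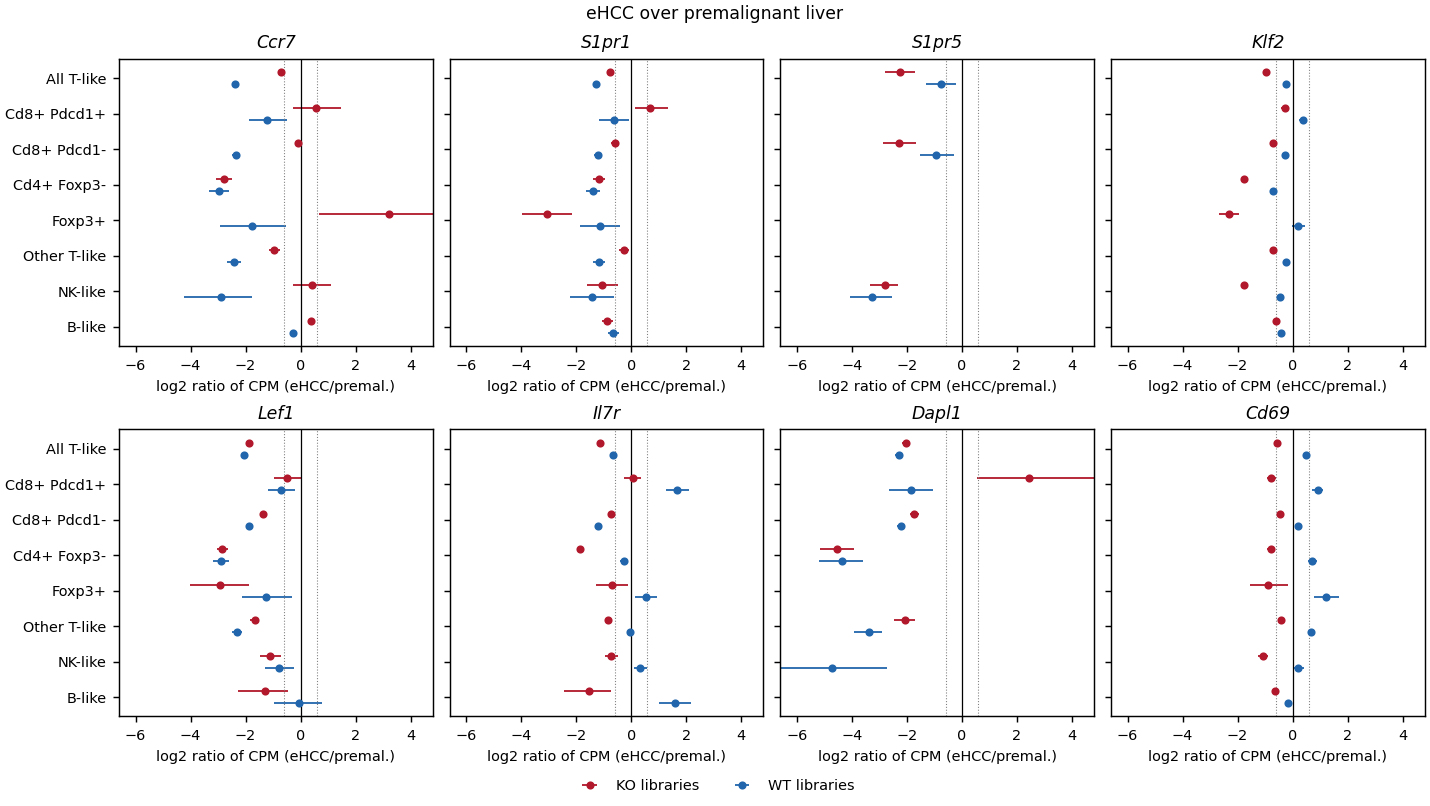
Log2 ratio of CPM, eHCC over premalignant liver, for each gene (panels) in the same cell groups, in the KO (red) and WT (blue) libraries, where both libraries together hold at least 20 UMIs. Bars are counting intervals (95%) and dotted lines mark 1.5-fold. Bars that run past the axis are cut off there. Lef1 and S1pr5 lie left of 0 in both genotypes in T-like and NK-like cells, while Cd69 lies left of 0 in KO and right of 0 in WT T-like cells.

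Klf2 (ENSMUSG00000055148, chr8:72319033-72321656, plus strand) encodes the transcription factor that drives S1pr1. Its level in T-like cells was 522 CPM (515 to 529) in KO eHCC and 1018 CPM (1007 to 1029.6) in WT eHCC. Premalignant T-like cells had 1031 CPM (1012 to 1049.7) in KO and 1209 CPM (1188 to 1231) in WT. The KO tumour library was the low one and the other 3 lay close together. The log2 ratio of KO over WT was -0.96 [-0.99 to -0.94] at eHCC and -0.23 [-0.27 to -0.19] in premalignant liver. It was lower past 1.5-fold in 5 of 5 T-like gates at eHCC (-2.28 to -0.69), and in 0 of 5 in premalignant liver. Cd4+ Foxp3- cells had 349.9 CPM in KO eHCC against 786 CPM in WT eHCC. Cd8+ Pdcd1+ cells had 320.3 against 637 CPM, and Cd8+ Pdcd1- cells 733 against 1208 CPM.

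Klf2 was also lower in other cells of the KO tumour. NK-like cells had 429.9 CPM in KO eHCC and 919 CPM in WT eHCC (-1.10 [-1.19 to -1.004]), against 1453 and 1251 CPM in KO and WT premalignant liver. Of the 5 other classes or clusters with at least 50 cells in both tumours, 4 were past 1.5-fold: neutrophil-like cells (-2.23 [-2.34 to -2.12]), the dendritic-type cluster (-1.21 [-1.38 to -1.03]), plasmacytoid dendritic-like cells (-1.09 [-1.21 to -0.97]) and phagocyte-like cells (-0.77 [-0.80 to -0.73]). Vascular endothelial-like cells had -0.14 [-0.25 to -0.03], and B-like cells 1427 against 1494 CPM (-0.07 [-0.13 to 0.00]). Within clusters the size varied: KO over WT at eHCC was -0.08 [-0.26 to 0.11] in cluster 3, -0.45 [-0.53 to -0.37] in cluster 7, -0.50 [-0.59 to -0.41] in the interferon gene cluster 16, -1.32 [-1.42 to -1.22] in the proliferating cluster 20 and -0.82 [-1.05 to -0.60] in the Il17a cluster 23. In the B-like cluster 17 Klf2 was higher in KO, 1404 CPM in 495 KO cells against 647 CPM in 57 WT cells (1.12 [0.98 to 1.26]), so that of 7 clusters compared, the NK-like one included, 1 was higher and 3 lower past 1.5-fold. The cells of cluster 17 had medians of 4844 UMIs in KO and 9548 in WT eHCC. Plasma cell markers summed to 325 and 5441 CPM in all B-like cells of these libraries. Whether cluster 17 held the same kind of cell in both was not tested. The 2 libraries had very unequal numbers in cluster 3 (2740 KO and 85 WT cells). After thinning, 32.3% of KO and 45.6% of WT eHCC T-like cells had a Klf2 UMI, against 7.14% of 28 and 5.97% of 67 hepatocyte-like cells; the medians before thinning were 7022.5 and 6421 UMIs in T-like and 3636 and 3739 UMIs in hepatocyte-like cells of KO and WT eHCC.

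Lef1 (ENSMUSG00000027985, chr3:131110471-131224356, plus strand) encodes the partner of TCF1 in naive T cells. T-like cells had 61.05 CPM (58.7 to 63.4) in KO eHCC and 62.4 CPM (59.6 to 65.2) in WT eHCC. The premalignant level was 223 CPM (214 to 232) in KO and 262 CPM (253 to 272) in WT. The tumour values of the 2 genotypes overlapped within counting error (KO over WT -0.03 [-0.12 to 0.06]), and both lay several-fold under the premalignant values (-1.87 [-1.95 to -1.79] in KO and -2.07 [-2.16 to -1.99] in WT). Lef1 was lower at eHCC past 1.5-fold in 4 of 5 gates in KO and 5 of 5 in WT, and KO over WT passed it in 0 of 5 gates at either stage. It was highest in cluster 14, 636 and 665 CPM in KO and WT premalignant liver. The Cxcr6 and Il4 cluster 13, also mainly premalignant, kept Lef1 at 127 and 104 CPM with 48 and 12 Ccr7 UMIs in 581 and 411 cells. Within cluster 9, Lef1 was 107 CPM in WT eHCC against 228 CPM in WT premalignant liver. NK-like cells had 28.2 and 28.3 CPM in KO and WT eHCC and 60.4 and 48.2 CPM in KO and WT premalignant liver. In B-like cells the thinned share was 0.592%, 0.978%, 1.01% and 0.548%, beside 0.362% and 0.139% in KO and WT premalignant LSEC-like cells.

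Il7r (ENSMUSG00000003882, chr15:9505788-9530176, minus strand) encodes the IL-7 receptor alpha chain. T-like cells had 202 CPM (198 to 207) in KO eHCC and 302 CPM (296 to 309) in WT eHCC. In premalignant T-like cells it was 450.5 CPM (438 to 463) in KO and 479 CPM (466 to 493) in WT. The order was WT premalignant, KO premalignant, WT eHCC and KO eHCC, from high to low. KO over WT at eHCC, -0.58 [-0.62 to -0.54], fell just short of 1.5-fold over all T-like cells. Of 5 gates, 4 were lower past it, the exception being Cd8+ Pdcd1- cells (0.16 [0.10 to 0.22]). Of 7 clusters compared, the NK-like and B-like ones included, 0 were higher and 3 lower past 1.5-fold. Among the T-like clusters compared, only the proliferating cluster 20 was lower past 1.5-fold. Cluster 23 was higher in KO, within 1.5-fold. The gates mix clusters, and the part of cluster make-up in the gate ratios was not tested. Cd4+ Foxp3- cells had 142 CPM in KO eHCC and 371 CPM in WT eHCC. NK-like cells had 99.7 CPM (90.00 to 110.2) in KO eHCC, 243 CPM (223 to 264) in WT eHCC, and 164 and 193 CPM in KO and WT premalignant liver, so the eHCC libraries lay on either side of the premalignant ones. The highest level among eHCC T-like clusters was in the Il17a and Trdc cluster 23, 998 and 746 CPM in KO and WT eHCC. The lowest was in the proliferating cluster 20, 28.6 and 99.7 CPM. In B-like cells a single cell gave 36.4% of the 44 WT eHCC UMIs, and the thinned shares of 0.197%, 1.47%, 0.823% and 0.292% stood beside 0.563% and 0.338% in KO and WT premalignant LSEC-like cells.

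Dapl1 (ENSMUSG00000026989, chr2:59484653-59505020, plus strand) is a transcript of naive and resting memory T cells in mice. Its T-like level was 21.7 CPM (20.3 to 23.1) in KO eHCC and 26.2 CPM (24.4 to 28.1) in WT eHCC. The premalignant libraries held 88.6 CPM (83.1 to 94.4) in KO and 128 CPM (122 to 135) in WT. It was lower at eHCC in both genotypes (-2.03 [-2.16 to -1.90] in KO and -2.29 [-2.42 to -2.16] in WT), and KO over WT stayed within 1.5-fold at eHCC (-0.27) and in premalignant liver (-0.53); the premalignant ratio passed it, at -0.63, once the median gene was kept level. Within gates, KO over WT at eHCC was past 1.5-fold higher in Cd8+ Pdcd1+ cells (0.63 [0.07 to 1.22]) and other T-like cells (0.89 [0.33 to 1.47]). The higher ratios were opposite in sign to the ratio over all T-like cells, and 0 of 5 gates were lower. The Cd8+ Pdcd1+ call rests on 125 KO and 34 WT UMIs, of which single cells gave 20.8% and 17.6%. After thinning, 0.902% of KO and 0.571% of WT cells of that gate had a Dapl1 UMI, with overlapping counting intervals. Of 7 clusters compared, 0 were higher and 0 lower past 1.5-fold. Foxp3+ cells had 0 UMIs in both tumour libraries. Cluster 14 alone gave 75.4% and 73.6% of the KO and WT premalignant Dapl1 UMIs of T-like cells. Cells of that cluster had 326 and 358 CPM, while Cd8+ Pdcd1+ cells had 10.01, 6.47, 1.84 and 23.5 CPM, the premalignant values resting on 2 and 25 UMIs. Outside T-like cells it was scarce: 1 cell gave 46.00% of the 50 KO premalignant UMIs of B-like cells, and 1 cell 57.1% of the 28 WT premalignant UMIs of NK-like cells.

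Cd69 (ENSMUSG00000030156, chr6:129267325-129275436, minus strand) encodes the activation antigen that opposes S1PR1. T-like cells had 262 CPM (258 to 267) in KO eHCC and 465 CPM (458 to 473) in WT eHCC. Premalignant T-like cells had 392 CPM (381 to 404) in KO and 333 CPM (322 to 344) in WT. The WT tumour was the highest library and the KO tumour the lowest. KO over WT was -0.83 [-0.86 to -0.79] at eHCC and 0.24 [0.17 to 0.30] in premalignant liver, and eHCC over premalignant was -0.58 [-0.63 to -0.53] in KO but 0.48 [0.43 to 0.54] in WT. The difference between genotypes at eHCC was past 1.5-fold in 4 of 5 gates; Cd8+ Pdcd1- cells had -0.46 [-0.51 to -0.41]. NK-like cells had 135 CPM in KO eHCC, 289.9 CPM in WT eHCC and 283 and 251 CPM in KO and WT premalignant liver (-1.10 [-1.27 to -0.94] at eHCC). B-like cells differed less, with 347 and 415 CPM in KO and WT eHCC and 540.5 and 464 CPM in KO and WT premalignant liver. The interferon gene cluster 16 had the highest Cd69 level of the eHCC T-like clusters in both genotypes, 540.3 and 781 CPM in KO and WT. After thinning, 21.4% and 36.02% of KO and WT eHCC T-like cells had a Cd69 UMI; in premalignant LSEC-like cells the share was 1.09% in KO and 0.796% in WT.

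**Figure D4:**
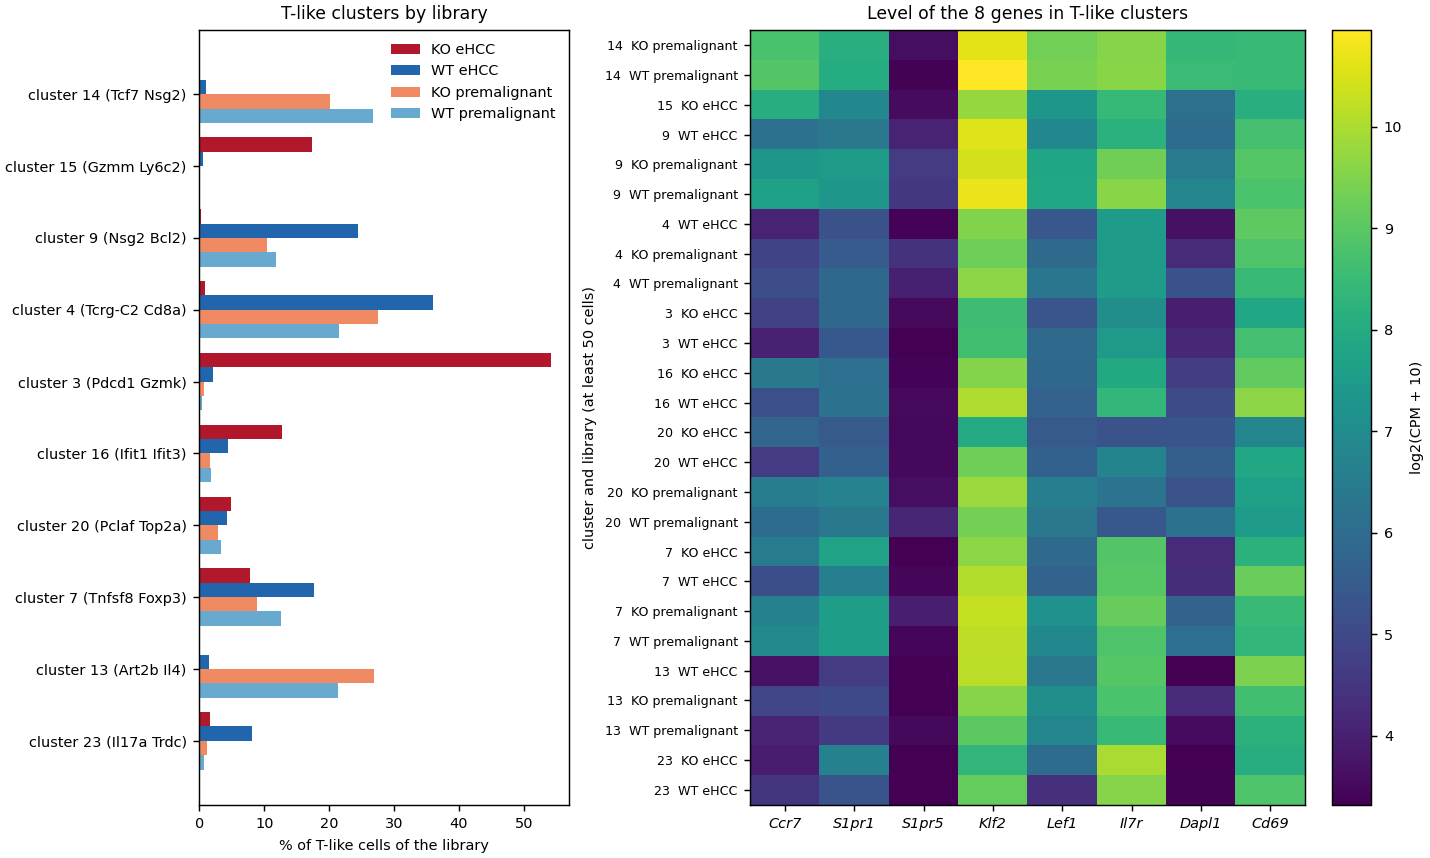
Left, share of each library's T-like cells (percent) in the 10 T-like clusters, named by 2 of their leading genes. Right, level of the 8 genes as log2(CPM + 10) in each cluster and library with at least 50 cells: cluster 14 of premalignant liver holds the highest Ccr7, Lef1 and Dapl1, and cluster 3 of KO eHCC is low in these and in Klf2.

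Detection of 6 of the genes (Ccr7, S1pr1, Klf2, Lef1, Il7r and Dapl1) in the same T-like cell was also counted. After thinning to 1000 UMIs, none of the 6 was detected in 53.1% of KO eHCC and 40.2% of WT eHCC cells. The same held for 32.1% of KO and 32.2% of WT premalignant cells. At least 3 of the 6 were detected in 3.43% of KO eHCC and 3.25% of WT eHCC cells, and in 14.9% of KO and 19.1% of WT premalignant cells. Cells with a Klf2 UMI had an S1pr1 UMI more often than cells without: 11.3% against 4.54% in KO eHCC, 7.01% against 2.89% in WT eHCC, 15.4% against 4.98% in KO premalignant and 16.3% against 4.14% in WT premalignant liver. The same split gave Ccr7 UMIs in 7.10% against 3.59% in KO eHCC, 3.51% against 1.45% in WT eHCC, 13.7% against 4.89% in KO premalignant and 15.6% against 5.70% in WT premalignant liver. For Cd69 the split by Klf2 gave 26.7% against 18.9% in KO eHCC and 36.3% against 35.8% in WT eHCC. In premalignant liver it gave 32.8% against 28.0% in KO and 29.7% against 22.9% in WT. The split by Cd69 differed little for S1pr1, with 6.98% against 6.65% in KO eHCC, 4.23% against 5.07% in WT eHCC, 9.13% against 10.7% in KO premalignant and 12.5% against 9.93% in WT premalignant T-like cells, with overlapping counting intervals in each library. These shares describe cells of 1 library each and mix T-like subsets, and the joint shares expected from the level of each gene were not computed.

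Genes of the same pathways were followed in T-like cells, and those with the largest and smallest log2 ratios are named, with their CPM in brackets. Of all genes measured there, 7.81% were higher and 16.9% lower in KO over WT at eHCC (median -0.09), 7.16% and 36.7% in eHCC over premalignant in KO (median -0.37), and 6.73% and 14.2% in WT (median -0.16); each count is to be read against these shares. Of 20 other naive T cell genes, 0 were higher and 15 lower at eHCC in KO (median -0.98), and 1 higher and 12 lower in WT (median -0.81). Igfbp4, an IGF-binding protein of naive CD4 T cells in mice, had a log2 ratio of -4.88 [4.14 against 122 CPM] in KO and -3.67 [13.1 against 166 CPM] in WT. Actn1, which encodes an actinin, had -2.51 [19.3 against 109.9 CPM] in KO and -2.33 [18.9 against 94.7 CPM] in WT. The exception in WT was Rgs10, a regulator of G protein signalling, at 0.90 [214 against 115 CPM]. Between KO and WT tumours, 1 naive gene was higher, Myb, a transcription factor of stem-like and dividing T cells (1.91 [21.1 against 5.60 CPM]), and 4 lower, led by Rgs10 (-1.76 [63.1 against 214 CPM]) and Igfbp4 (-1.66 [4.14 against 13.1 CPM]).

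Among 14 measured genes of S1P sensing and turnover, 2 were higher and 3 lower in KO over WT at eHCC, beside 7.81% and 16.9% of all genes (median 0.01). Gna13, a G protein subunit that couples S1P receptors, had 0.77 [249 against 147 CPM], and S1pr4, another lymphocyte S1P receptor, 0.62 [94.9 against 61.9 CPM]. The lower ones included Apom, the plasma carrier of S1P made by hepatocytes (-3.55 [0.140 against 1.64 CPM]), and Plpp1, a lipid phosphatase (-2.16 [0.396 against 1.77 CPM]). In the stage comparison 1 of 13 measured was higher and 8 lower in KO, with 7.16% and 36.7% of all genes, and 0 of 14 higher and 5 lower in WT, with 6.73% and 14.2%, led by Plpp3 (-6.07 [0.349 against 23.4 CPM] in KO and -4.56 [1.47 against 34.8 CPM] in WT), which LSEC express. The 10 LSEC markers in the files, all with UMIs, summed to 7.1 and 14.9 CPM in KO and WT eHCC T-like cells and to 226 and 349.7 CPM in KO and WT premalignant ones. The 10 hepatocyte markers, with Cps1 at 0 in KO eHCC, summed to 12.8 and 166 CPM in KO and WT eHCC T-like cells. Apom was scarce in both of these libraries, and the part of hepatocyte RNA in its ratio was not tested.

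Of 14 measured genes of the IL-7 receptor pathway, 3 were higher and 2 lower in KO over WT at eHCC, beside 7.81% and 16.9% of all genes (median 0.18). Socs3 and Stat5a, a feedback inhibitor and a signal transducer, had 0.91 [192 against 102 CPM] and 0.78 [31.2 against 18.2 CPM]. Bcl2, the survival gene that IL-7 sustains, had -1.57 [231 against 686 CPM], and Cish, a STAT5-induced inhibitor, -0.996 [64.00 against 128 CPM]. In the stage comparison 2 of 14 were higher and 2 lower in KO (median -0.20), with 7.16% and 36.7% of all genes. In WT 2 of 14 were higher and 1 lower (median -0.08), with 6.73% and 14.2% of all genes. The 2 higher genes in WT were Cish (1.06 [128 against 61.4 CPM]) and Bcl2 (0.92 [686 against 363 CPM]). Of the 7 measured genes around CCR7, 1 was higher and 1 lower in KO over WT at eHCC (median 0.04), beside 7.81% and 16.9% of all genes. In the stage comparison 1 was higher and 3 lower in KO, with 7.16% and 36.7% of all genes. In WT 1 was higher and 1 lower, with 6.73% and 14.2%. Ccr9, a gut homing receptor that plasmacytoid dendritic cells also carry, had a lower level at eHCC, -4.03 [2.10 against 34.2 CPM] in KO and -2.78 [4.22 against 29.1 CPM] in WT. Cxcr4, a receptor for CXCL12, had a higher one, 0.77 [313 against 184 CPM] and 1.48 [257 against 91.9 CPM].

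Other gene groups were followed in the same T-like cells, where 7.81% of all genes were higher and 16.9% lower in KO over WT at eHCC. Of 20 immediate-early genes, which are induced within minutes by stimulation or dissociation, 3 were higher and 8 lower in KO over WT at eHCC (median -0.43); Fos had -2.28 [151 against 731 CPM], Jun -1.76 [143 against 483 CPM], Fosl2 1.33 [311 against 124 CPM] and Nr4a3 1.26 [296 against 124 CPM]. In premalignant liver 6 were higher and 0 lower (median 0.45), with 10.7% and 3.28% of all genes, led by Fosb (1.63 [478 against 154 CPM]) and Atf3 (1.27 [12.9 against 5.35 CPM]). In the stage comparison 3 were higher and 9 lower in KO, with 7.16% and 36.7% of all genes, and 9 higher and 0 lower in WT, with 6.73% and 14.2%. The part of handling in Klf2 and Cd69, which dissociation can also induce, was not tested. All 16 type I interferon response genes were higher in KO over WT at eHCC (median 1.52), led by Oasl2 (2.45 [31.5 against 5.76 CPM]) and Rsad2 (2.37 [80.3 against 15.5 CPM]), both antiviral. In premalignant liver 0 were higher and 1 lower (median -0.39), with 10.7% and 3.28% of all genes. By stage, 15 were higher and 0 lower in KO, with 7.16% and 36.7% of all genes. In WT 2 were higher and 4 lower, with 6.73% and 14.2%. Of 17 effector and exhaustion genes, 9 were higher and 0 lower in KO over WT at eHCC (median 0.84), led by the cytotoxic protease gene Gzmb (2.46 [660.4 against 120.3 CPM]) and the costimulatory receptor gene Tnfrsf9 (1.83 [79.3 against 22.3 CPM]). Of 15 measured tissue residency genes, 2 were higher and 5 lower (median 0.02). Itgae, the integrin that binds E-cadherin, had -2.31 [9.73 against 48.1 CPM], and Zfp683, the transcription factor Hobit, -2.43 [0.559 against 3.01 CPM]. Hic1, a repressor of transcription, had 1.05 [17.9 against 8.68 CPM], and Bhlhe40, another factor of tissue T cells, 0.67 [318 against 200.2 CPM]. Of 12 heat shock genes, 1 was higher and 2 lower, about the shares found over all genes, with Hspa1b at -1.17 [231 against 521 CPM] and Hspa1a at -0.87 [188 against 344 CPM].

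Across 26 profiles (B-like, NK-like and gated T-like cells of the 4 libraries), the genes whose log2(CPM + 10) followed each of the 8 most closely among 9484 were Treml2, Cnp and Cmah for Ccr7 (Pearson r 0.885, 0.878 and 0.877), and Rgmb, Il6ra and Crlf3 for S1pr1 (0.862, 0.854 and 0.841). They were Adamts14, Rap1gap2 and Afdn for S1pr5 (0.901, 0.885 and 0.885), Tsc22d3, Card6 and Aaed1 for Klf2 (0.917, 0.859 and 0.856), and Tmem71, Ikbke and Gm26551 for Lef1 (0.913, 0.911 and 0.904). For Il7r they were Gm20186, Slco3a1 and Arl4c (0.946, 0.906 and 0.899), for Dapl1 Tdrp, Actn1 and Nsg2 (0.98, 0.912 and 0.902), and for Cd69 Camk1d, Zfp1 and Slc29a3 (0.823, 0.804 and 0.791). Among the 8 themselves, Lef1 went with Dapl1 (0.893) and Il7r (0.814), Ccr7 with S1pr1 (0.828) and Klf2 with Cd69 (0.68), while S1pr5 correlated at -0.37 to 0.22 with the other 7. The profiles share libraries and differ in depth, so these coefficients are descriptions.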

How the data were processed

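The deposited matrices hold whole-number UMI counts per gene and cell barcode for 4 libraries, and per the file headers Cell Ranger 3.0.1 wrote them. Per the submitters' processing notes, bcl2fastq 2.20.0 was used too, and 2 builds are listed without a role, mm10 and GRCh38. Barcodes were kept from 500 UMIs and 300 genes upward and up to 25% mitochondrial UMIs. Doublets were marked by scrublet in each library; in KO eHCC its own threshold marked 0.0112% of barcodes, so the top share was removed there instead. Doublets removed numbered 581 in KO eHCC, 187 in WT eHCC, 676 in KO premalignant and 868 in WT premalignant liver. The libraries were clustered together, with no batch correction, on 2000 variable genes without the 8 genes, 40 principal components (values scaled and limited to 10), 15 neighbours and Leiden resolution 1 with seed 0, using scanpy 1.11.5, scikit-learn 1.9.0, igraph 0.11.9, scipy 1.17.1, numpy 2.4.6, pandas 2.3.3, matplotlib 3.10.9 and python 3.11.15. Classes were named from marker lists with at least 3 markers in at least 10% of cells (pseudocount 5 CPM). For T-like clusters the leading genes were taken against cells of other classes, a choice made after seeing the data.

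UMI counts were summed per class and library and divided by the class total (CPM; the libraries held 93920711, 118594527, 56458438 and 96593761 UMIs in KO eHCC, WT eHCC, KO premalignant and WT premalignant liver). Log2 ratios carry exact 95% intervals, and a gene counts as past 1.5-fold when its interval also excludes 0; against 0 UMIs, a floor of 3 counts per library was used. Shares of all genes cover those with at least 50 UMIs in both sums together. Shares of cells were taken after thinning to 1000 UMIs. Intervals and floors cover counting error only. The calculation was tested on simulated counts. Of each list, the 2 genes with the largest and the 2 with the smallest ratio among those past 1.5-fold were named. Likeness used profiles of at least 50 cells and genes with at least 500 UMIs. The 8 genes and the lists were chosen with earlier results of these data known. Of 31053 identifiers, 31011 (99.9%) are in GENCODE vM21, which gave positions; upstream windows are from RefSeq. Alternatives changed the mitochondrial and UMI limits, doublets, thinning, cell weights, variable genes, clustering, class rule, scaling and UMI minimum.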

Additional observations from a re-analysis of the deposited data

Results flagged for a closer look

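These ratios lay past 1.5-fold in opposite directions in the 2 stages or the 2 genotypes. In no case was the difference between the ratios tested, since each group is 1 library.

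Cd8+ Pdcd1+ T-like cells held 7 of the 12 cases. The share of all genes with such opposite ratios was not computed for any gate. This gate held only 183 KO and 151 WT premalignant cells, so the count is not read as a trait of the gate. Cd69 had a log2 ratio of KO over WT of -1.10 at eHCC and 0.59 in premalignant liver, and of eHCC over premalignant of -0.78 in KO and 0.91 in WT, each from at least 255 UMIs per library. Il7r, KO over WT, was -0.74 at eHCC and 0.88 in premalignant liver. Ccr7 was 0.61 at eHCC and -1.14 in premalignant liver, where it rests on 13 KO and 28 WT UMIs. S1pr1, eHCC over premalignant, was 0.70 in KO and -0.64 in WT, with 25 and 41 premalignant UMIs in KO and WT. Dapl1, KO over WT, was 0.63 at eHCC and -3.67 in premalignant liver, and eHCC over premalignant was 2.44 in KO and -1.86 in WT. The KO premalignant library held 2 UMIs, and 1 cell gave 20.8% of the KO eHCC UMIs.

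In Cd4+ Foxp3- cells Cd69, eHCC over premalignant, was -0.79 in KO and 0.72 in WT. In Cd8+ Pdcd1- cells S1pr5, KO over WT, was -0.67 at eHCC and 0.68 in premalignant liver. In NK-like cells Ccr7, KO over WT, was 2.36 at eHCC and -0.94 in premalignant liver, from 68 KO and 8 WT UMIs at eHCC. In B-like cells Il7r, KO over WT, was -1.68 at eHCC and 1.47 in premalignant liver, and eHCC over premalignant was -1.54 in KO and 1.61 in WT; these rest on 14 KO and 44 WT eHCC UMIs and turn round under other clusterings.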

How the results depend on the processing

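Of 47 ratios past 1.5-fold in T-like, B-like and NK-like cells, 19 stayed so, with their sign, under every alternative that gave a value, and 542 of 604 alternative values did. In T-like cells at eHCC, KO over WT ranged over -0.98 to -0.84 for Klf2, -0.84 to -0.64 for Cd69, 1.15 to 1.35 for Ccr7 and -1.22 to -0.03 for S1pr5. The ratios that turned round had few UMIs: Il7r in B-like cells, KO over WT at eHCC, 1.04 at resolution 2 and 0.95 with doublets by top share in both eHCC libraries; Il7r in B-like cells, eHCC over premalignant in WT, -0.79 and -0.81 under the same choices; Dapl1 in premalignant B-like cells, -0.21 after thinning; and Ccr7 in eHCC NK-like cells, -1.66 with classes from marker UMIs. The cause was not tested.

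Of 156 alternative counts of the 8 genes past 1.5-fold, 133 lay within 1.5 times the reported count. The others, for KO over WT in premalignant liver, were 1 in T-like cells with equal cell weights, libraries clustered alone or median-of-ratios scaling (reported 0); in B-like cells 1 after thinning, 0 with libraries clustered alone and 1 at resolution 2 (reported 3); and in NK-like cells 1 with doublets kept, equal weights or at least 50 UMIs, 0 after thinning and 6 from marker UMIs (reported 2). For KO over WT at eHCC they were 0 in B-like cells at resolution 2 and with doublets by top share (reported 2), and 2 in NK-like cells from marker UMIs (reported 4). For eHCC over premalignant in KO they were 3 in B-like cells at resolution 2 and 3 in NK-like cells after thinning (reported 6 each). For the WT libraries they were, in B-like cells, 1 with equal weights or median-of-ratios scaling, 0 at resolution 2 and with doublets by top share, and 4 from marker UMIs (reported 2), and in NK-like cells 2 after thinning and 3 with at least 50 UMIs (reported 5). A count within the limit can still hold other genes or directions, as in KO B-like and KO NK-like cells, eHCC over premalignant, with the median gene kept level. Doublets by top share and the removal of clusters with mixed markers were chosen after seeing the data. No paired analysis was possible because each group is 1 library and the labels carry no replicate numbers.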
